A study of Rattus norvegicus with 12 samples.

Results

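The 10 genes described here are neuronal activity genes: the 4 Egr transcription factors (Egr1, Egr2, Egr3 and Egr4), the 3 Nr4a nuclear receptors (Nr4a1, Nr4a2 and Nr4a3), the transcription factor Npas4, the synaptic protein gene Arc and the immediate-early gene Ier2. Every array probe whose transcript accession carries one of these symbols was taken, which gave 12 probes for all 10 genes, among 19412 features tested on the array (11110 of them with a symbol). Egr3 and Nr4a2 had 2 probes each and the others 1. Levels were measured in rat striatum, 3 arrays in each of 4 groups. All rats were male Wistar animals with 6-hydroxydopamine (6-OHDA), which destroys dopamine neurons, injected unilaterally into the left medial forebrain bundle, the path of the dopamine fibres. All had passed a screen of at least 7 turns per min after 3 mg/kg of methamphetamine (METH). The ZDL arrays hold the lesioned striatum after L-DOPA (100 mg/kg) with zonisamide (50 mg/kg, 30 min after L-DOPA). The DL arrays hold the lesioned striatum after L-DOPA alone at the same dose, the SL arrays the lesioned striatum after saline, and the NL arrays the opposite, non-lesioned striatum after saline. Dosing was once a day for 7 days, and the peripheral decarboxylase inhibitor benserazide preceded each L-DOPA injection. The 4 groups share the lesion operation and the METH challenge, so the NL side also comes from a lesioned animal. Whether NL and SL tissue came from the same rats, and the interval between the last dose and dissection, are not given in the sources used here.

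Activity genes are transcribed within minutes of synaptic input or receptor signalling, without new protein synthesis, and their RNA decays quickly. In spiny projection neurons of the striatum, dopamine acting through D1 receptors, together with cortical glutamate, drives them through cyclic AMP, calcium and the ERK kinases, which act on the factors CREB and SRF at their promoters. Loss of dopamine makes the D1 pathway oversensitive, and these genes are classical readouts of a first L-DOPA dose in the lesioned striatum. Egr and Nr4a proteins then regulate further genes, Arc acts at synapses to remove AMPA receptors, and Npas4 shapes inhibitory synapses. Neurons convert L-DOPA to dopamine. Zonisamide was developed against epilepsy and is also given in Parkinson's disease.

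Promoter sequences are shown for 3 members whose levels moved together across arrays (Egr2, Egr4 and Nr4a1) and for Ier2, which did not move with them. They are the 250 bases before the transcription start in RefSeq (rat build GRCr8), 5′ to 3′ on the strand of the gene. Capitals mark the CRE half-site TGACG, the core of the site that CREB binds, on either strand, and the CArG box, the site of SRF. Egr2 lies at chr20:21054442-21054691 on the minus strand, Egr4 at chr4:119607818-119608067 on the minus strand, Nr4a1 at chr7:134259888-134260137 on the plus strand and Ier2 at chr19:40399123-40399372 on the plus strand.
Egr2: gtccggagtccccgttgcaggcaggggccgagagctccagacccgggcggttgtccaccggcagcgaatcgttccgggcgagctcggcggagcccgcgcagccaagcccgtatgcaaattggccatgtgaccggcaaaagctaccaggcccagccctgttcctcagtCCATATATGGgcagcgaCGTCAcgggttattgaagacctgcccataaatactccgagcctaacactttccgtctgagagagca
Egr4: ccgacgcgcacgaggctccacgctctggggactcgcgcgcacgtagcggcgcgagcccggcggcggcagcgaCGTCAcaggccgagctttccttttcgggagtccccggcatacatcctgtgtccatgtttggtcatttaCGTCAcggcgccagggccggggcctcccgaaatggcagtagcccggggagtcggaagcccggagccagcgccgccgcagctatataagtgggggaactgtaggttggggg
Nr4a1: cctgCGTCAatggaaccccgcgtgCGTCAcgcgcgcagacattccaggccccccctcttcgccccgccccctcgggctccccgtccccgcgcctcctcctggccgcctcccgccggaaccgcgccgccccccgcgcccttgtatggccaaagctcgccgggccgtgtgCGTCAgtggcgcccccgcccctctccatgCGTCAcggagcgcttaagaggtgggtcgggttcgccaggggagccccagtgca
Ier2: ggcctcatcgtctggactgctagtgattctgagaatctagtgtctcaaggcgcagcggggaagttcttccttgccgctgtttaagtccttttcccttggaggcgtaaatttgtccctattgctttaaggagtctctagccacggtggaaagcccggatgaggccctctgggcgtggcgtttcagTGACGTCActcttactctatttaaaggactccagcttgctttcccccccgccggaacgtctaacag

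The RefSeq promoter table held 7 of the 10 members, and the search also covered 50 bases after the start. TGACG occurred in 21.2% of 33469 rat promoters of 300 bases. It was present in 6 of the 7 members: 4 matches in Nr4a1, 2 in Egr1, 2 in Egr4, 1 in Egr2, 1 in Nr4a2 and 2 in Ier2. The pair of matches in Ier2 overlaps and forms the full CRE, TGACGTCA, which 1.83% of promoters held. No match was found in Npas4. The CArG box, held by 1.64% of promoters, occurred once in Egr2 and 2 times in Egr1. The Egr site GCGNGGGCG (4.98% of promoters) was found once, in Nr4a1, where its letters lie near the third TGACG match. The Nr4a site AAAGGTCA (1.43% of promoters) was found in none of the 7. These are matches of letters and do not show that a factor binds there.

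The 12 arrays lay on 5 slides. Same-numbered ZDL and DL arrays shared a slide, so that comparison can be read within 3 slides. The share of probes well above background was 67.6% (ZDL replicate 3) to 74.0% (SL replicate 3). The coefficient of variation between replicate spots ran from 8.62% on SL replicate 3 to 41.4% on ZDL replicate 3. The 75th percentile of signal ran from 793 on ZDL replicate 3 to 1737 on ZDL replicate 2. All 11 spiny neuron markers were above background on every array. In multiples of the array's 75th percentile, their summed level was 178 to 238 in ZDL and 186 to 212 in DL. It was 223 to 232 in SL and 177 to 264 in NL, so DL lay below SL without overlap. Markers of neighbouring tissue were uneven between arrays. The summed level of 12 choroid plexus markers ran, in multiples of the array's 75th percentile, from 9.05 to 114 in ZDL, 23.1 to 180 in DL, 3.62 to 23.8 in SL and 9.25 to 151 in NL. The summed level of the 7 measured of 10 cortical excitatory neuron markers ran from 0.183 to 0.681 in ZDL, 0.145 to 0.770 in DL, 0.226 to 0.399 in SL and 0.149 to 0.213 in NL, with 4 to 7 of the 7 above background. The summed levels of vascular and blood markers separated ZDL from DL, whereas their medians did not. The summed level of 7 vascular markers, all above background on every array, was 2.28 to 2.72 in ZDL, 3.99 to 5.21 in DL, 3.31 to 4.25 in SL and 2.58 to 3.21 in NL. That of the 5 measured of 6 blood markers was 40.1 to 57.9 in ZDL, 64.2 to 111 in DL, 70.5 to 73.3 in SL and 64.8 to 79.9 in NL, with 4 or 5 above background. Neither sum overlapped between ZDL and DL or between ZDL and SL, and the vascular sum of DL lay above that of NL. The median level of each list's markers overlapped in all of these comparisons. In log2 relative to the array's 75th percentile, the vascular median was -2.87 to -1.99 in ZDL and -2.46 to -1.08 in DL. The blood median was -2.83 to -1.76 in ZDL and -2.34 to -1.29 in DL. The vascular and blood sums therefore stand beside the lower ZDL values of Nr4a1, Nr4a3, Arc, Ier2 and Gadd45b given below. The part of vascular cells and blood in those values was not tested. The 7 astrocyte markers summed to 114 to 145 in ZDL and 103 to 125 in DL. Their sum was 134 to 172 in SL and 126 to 165 in NL, so DL lay below both without overlap. The spiny neuron, astrocyte and vascular sums stand beside the DL minus SL and DL minus NL values below. The microglia medians stand beside these and the ZDL minus DL values. The part of these cell types in those values was not tested. In bulk tissue, fewer cells of a type and less RNA per cell cannot be told apart. With 3 arrays per group, their number limits the precision of every value. All levels below are log2 processed signals relative to the array's own 75th percentile, so 0 is the 75th percentile and a difference of 1 is a doubling, and they compare groups within a gene, not one gene with another. Of the 12 probes, 11 were well above background on all 12 arrays and the second Egr3 probe was on 11.

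No member passed the test in any of the 6 pairwise comparisons of the groups, with limma and a Benjamini-Hochberg adjusted p threshold of 0.05 over all 19412 features. The percentage of all features that passed was 0.433 for DL minus SL, 0.479 for ZDL minus DL, 1.16 for DL minus NL, and 0 for SL minus NL, ZDL minus SL and ZDL minus NL. At an unadjusted p under 0.05, limma gave 1 of the 10 members for DL minus SL (Ier2, higher), 3 for ZDL minus DL (Nr4a1, Arc and Ier2, all lower) and 4 for ZDL minus SL (Egr2, Nr4a1, Nr4a3 and Arc, all lower). Against the non-lesioned side it gave 4 for DL (Ier2 higher, and Egr2, Egr4 and Npas4 lower), 5 for ZDL (Egr2, Egr4, Nr4a1, Nr4a3 and Arc, all lower) and 0 for SL. The corresponding numbers of all features were 2192 for DL minus SL, 2408 for ZDL minus DL, 1424 for ZDL minus SL, 2740 for DL minus NL, 822 for ZDL minus NL and 1646 for SL minus NL.

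Counts of members whose 3 arrays in one group lay wholly above or below the 3 of the other can be set against the same count over all features. For DL minus SL it was 5 of 10 members (Ier2 higher, and Egr2, Egr4, Nr4a1 and Npas4 lower), where 22.4% of all features did not overlap. For ZDL minus DL it was 3 members (Egr3, Nr4a1 and Ier2, all lower) against 17.3% of features, and for ZDL minus SL 3 members (Nr4a1, Nr4a3 and Arc, all lower) against 18.1%. Against NL it was 5 members in DL (Egr3, Nr4a2 and Ier2 higher, Egr2 and Egr4 lower) with 18.9% of features, and 3 in ZDL (Nr4a1, Nr4a3 and Arc, all lower) with 7.19%. For SL minus NL it was 1 member (Nr4a2, higher) with 17% of features. The median log2 difference of the 10 members was -0.25 for DL minus SL, -0.48 for ZDL minus DL, -0.56 for ZDL minus SL and 0.05 for SL minus NL, where the median of all features was -0.03, -0.03, -0.05 and 0.05. The 6 comparisons share arrays, so these counts are not independent of each other. The members were chosen with earlier results of these data known, so the counts are descriptions.

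**Figure D1:**
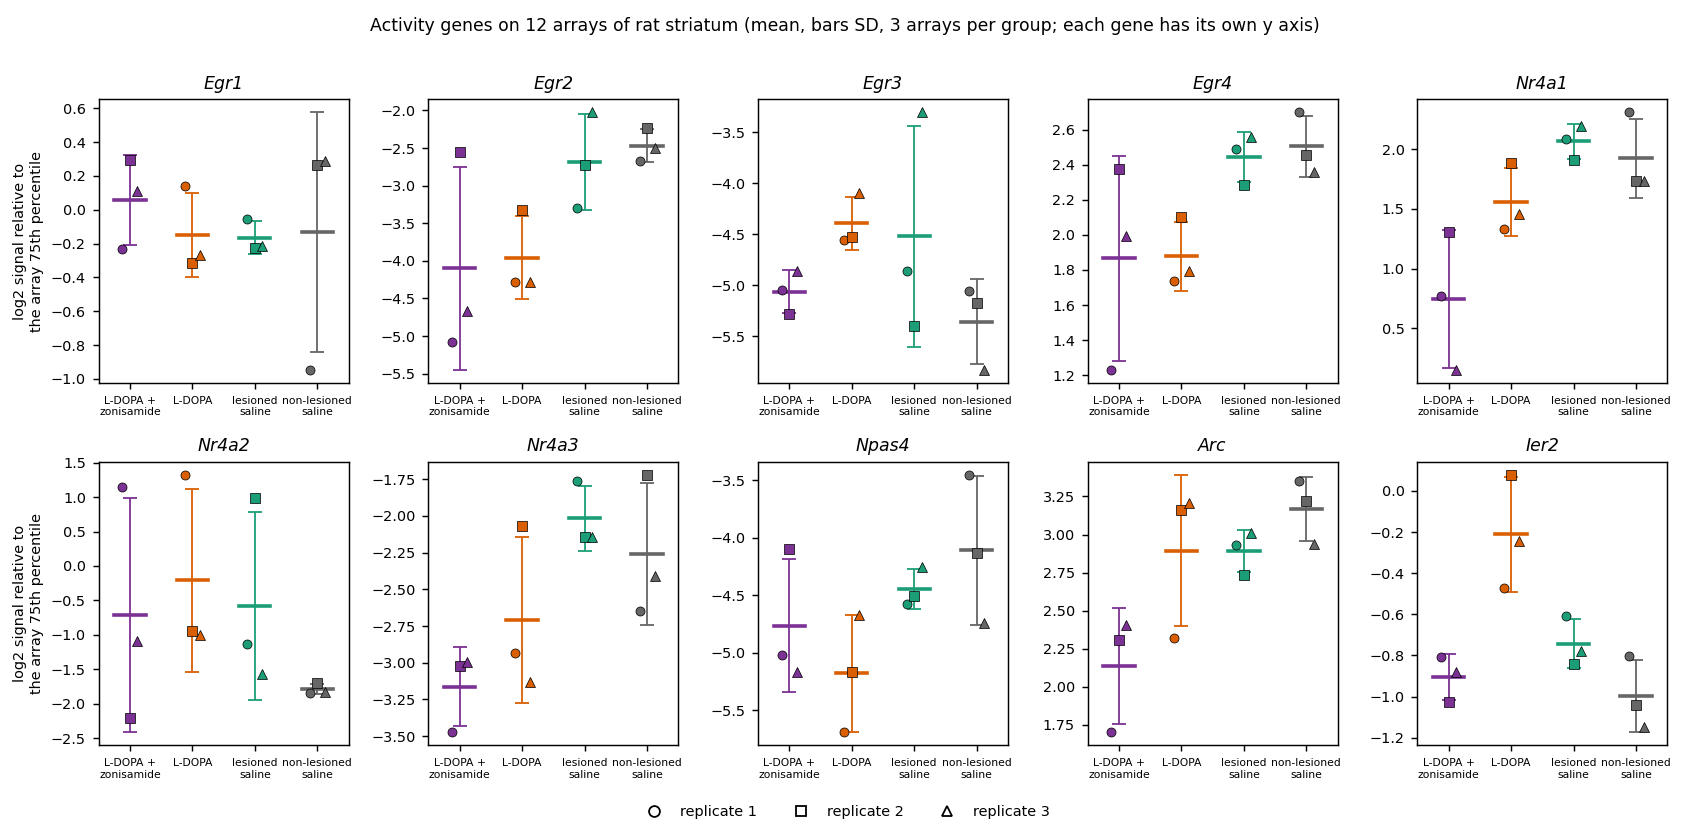
Level of each of the 10 activity genes on every array (y axis, log2 signal relative to the array's 75th percentile, a separate scale for each gene) in the ZDL, DL, SL and NL groups (x axis). Symbols are the 3 arrays of a group by replicate number, thick lines are means and bars are SD; the 3 ZDL arrays of Nr4a1 lie below the 3 DL arrays, and those of Arc lie below the 3 SL arrays.

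The Egr factors bind GC-rich sites as immediate transcriptional effectors of ERK signalling. Egr1, the best known of them and a widely used activity marker, showed similar levels in the 4 groups. It was -0.23, 0.29 and 0.11 on the ZDL arrays, 0.14, -0.32 and -0.27 on the DL arrays, -0.05, -0.23 and -0.22 on the SL arrays and -0.95, 0.26 and 0.29 on the NL arrays. The group means were 0.06 ± 0.27 in ZDL, -0.15 ± 0.25 in DL, -0.17 ± 0.10 in SL and -0.13 ± 0.71 in NL (SD, n = 3 each). All 4 groups overlapped, and the first NL array was the lowest of the 12. The 95% intervals of the Egr1 differences ran from -0.67 to 0.71 for DL minus SL and from -0.48 to 0.89 for ZDL minus DL in limma.

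Egr2, which is also a driver of myelination in the peripheral nerve, was lower on the drug-treated arrays than on the saline arrays with 1 exception. It was -5.08, -2.56 and -4.66 on the ZDL arrays, -4.28, -3.32 and -4.28 on the DL arrays, -3.29, -2.73 and -2.03 on the SL arrays and -2.67, -2.23 and -2.50 on the NL arrays. The DL arrays lay below all SL and NL arrays, whereas the second ZDL array lay among the saline values. The log2 difference was -1.28 ± 0.59 for DL minus SL (SE; limma, adjusted p = 0.456) and -1.49 ± 0.59 for DL minus NL (limma, adjusted p = 0.294). With zonisamide added it was -1.42 ± 0.59 for ZDL minus SL (limma, adjusted p = 0.666) and -1.63 ± 0.59 for ZDL minus NL (limma, adjusted p = 0.9996). Means ran from lowest in ZDL (-4.10 ± 1.35) through DL (-3.96 ± 0.55) and SL (-2.68 ± 0.64) to highest in NL (-2.47 ± 0.22; SD, n = 3 each), and ZDL and DL, like SL and NL, differed by less than their spread.

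Egr3 is needed for muscle spindles in mice and is an activity gene in the brain, and its main probe was among the dimmer ones. It was -5.05, -5.29 and -4.86 on the ZDL arrays, -4.56, -4.53 and -4.10 on the DL arrays, -4.86, -5.40 and -3.31 on the SL arrays and -5.06, -5.18 and -5.84 on the NL arrays. The DL arrays lay above all ZDL and NL arrays, while the SL arrays overlapped all 3 other groups. The log2 difference was -0.67 ± 0.45 for ZDL minus DL (SE; limma, adjusted p = 0.614) and 0.96 ± 0.45 for DL minus NL (limma, adjusted p = 0.376).

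The second Egr3 probe separated DL from the other groups and was not high on the third SL array. It was -6.28, -5.96 and -6.05 on the ZDL arrays, -5.11, -4.94 and -4.96 on the DL arrays, -5.84, -6.92 and -6.10 on the SL arrays and -5.43, -5.85 and -6.43 on the NL arrays. On this probe the 3 DL arrays were above all 9 others. The probe was dim, with a processed signal of 11.8 to 40.4. Its lowest value, -6.92 on the second SL array, was the only one not well above background. The DL minus SL difference of this probe includes that value. In a fit with every probe as its own feature, its log2 difference was -1.09 ± 0.30 for ZDL minus DL (SE; limma, adjusted p = 0.155) and 1.28 ± 0.30 for DL minus SL (limma, adjusted p = 0.120), where the main probe in the same fit had overlapping groups (limma, adjusted p = 0.955). Both probes correlated at r = 0.45 over 12 arrays and at 0.82 over the 11 without the third SL array. On that array the main probe read -3.31 and the second -6.10. Without it the DL minus SL difference of the main probe was 0.74, so the L-DOPA difference of Egr3 depends on the main probe's value on that array.

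Egr4, an Egr factor expressed mainly in the nervous system, had 1.23, 2.37 and 1.99 on the ZDL arrays, 1.74, 2.10 and 1.80 on the DL arrays, 2.49, 2.28 and 2.56 on the SL arrays and 2.70, 2.46 and 2.36 on the NL arrays. The DL arrays again lay below all 6 saline arrays and the second ZDL array among them, the same pattern as Egr2. The log2 difference was -0.57 ± 0.26 for DL minus SL (SE; limma, adjusted p = 0.453), a 1.48-fold lower level, and -0.63 ± 0.26 for DL minus NL (limma, adjusted p = 0.315). For ZDL minus NL it was -0.64 ± 0.26 (limma, adjusted p = 0.9996). The means of ZDL (1.87 ± 0.58) and DL (1.88 ± 0.20) were alike, as were those of SL (2.44 ± 0.14) and NL (2.51 ± 0.17; SD, n = 3 each).

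Nr4a1 (also called Nur77), an orphan nuclear receptor that binds DNA as a monomer or with RXR and is abundant in dopamine-innervated striatum, had the smallest p of the members for ZDL minus SL. Its level was 0.77, 1.31 and 0.15 on the ZDL arrays, 1.34, 1.88 and 1.46 on the DL arrays, 2.09, 1.91 and 2.20 on the SL arrays and 2.31, 1.73 and 1.73 on the NL arrays. Every ZDL array was below every DL array, and every DL array was below every SL array. The lowest value, 0.15, was on ZDL replicate 3, the array with the most variable replicate spots and the lowest 75th percentile. Means were 0.74 ± 0.58 in ZDL, 1.56 ± 0.29 in DL, 2.07 ± 0.14 in SL and 1.92 ± 0.33 in NL (SD, n = 3 each).

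The ZDL minus SL difference of Nr4a1 was -1.32 ± 0.29 (SE; limma, adjusted p = 0.493), a 2.50-fold lower level, and ZDL minus NL was -1.18 ± 0.29 (limma, adjusted p = 0.9996). The zonisamide comparison, ZDL minus DL, gave -0.82 ± 0.29 (limma, adjusted p = 0.274), 1.76-fold lower, and DL minus SL gave -0.51 ± 0.29 (limma, adjusted p = 0.558). Within slides, ZDL was lower than DL on 3 of 3, by differences from -1.31 to -0.56. Without the 4 arrays with the highest transthyretin (Ttr), a choroid plexus transcript, an alternative chosen after the data were seen that leaves 1 DL array, the ZDL minus DL difference was -0.30, and the ZDL minus SL difference was -1.03. Over the 12 arrays Ttr correlated (Pearson r) with Npas4 at -0.49, Egr4 at -0.44, Nr4a1 at -0.42 and Arc at -0.01. For the remaining members r lay between -0.35 and 0.30. By rank (Spearman) the correlation was -0.67 for Npas4 and -0.64 for Egr4, and between -0.34 and 0.46 for the rest. The part of Ttr-rich tissue in the Nr4a1, Egr4 and Npas4 values was not tested further.

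Nr4a3 (NOR-1), the third receptor of the family, was lower with both drugs than with saline. It was -3.47, -3.02 and -2.99 on the ZDL arrays, -2.93, -2.07 and -3.13 on the DL arrays, -1.76, -2.15 and -2.14 on the SL arrays and -2.65, -1.72 and -2.41 on the NL arrays. No ZDL array reached the SL or NL range, while the DL arrays overlapped all 3 other groups. The ZDL minus SL difference was -1.15 ± 0.32 (SE; limma, adjusted p = 0.621), 2.21-fold lower, and ZDL minus NL was -0.90 ± 0.32 (limma, adjusted p = 0.9996). The order of the means was ZDL (-3.16 ± 0.27), DL (-2.71 ± 0.57), NL (-2.26 ± 0.48) and SL (-2.02 ± 0.22; SD, n = 3 each), and neighbours in this order overlapped.

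Nr4a2 (Nurr1), needed for midbrain dopamine neurons and expressed in deep cortical layers, behaved differently from the other receptors of its family. It was 1.15, -2.20 and -1.08 on the ZDL arrays, 1.33, -0.95 and -1.004 on the DL arrays, -1.14, 0.98 and -1.57 on the SL arrays and -1.84, -1.70 and -1.83 on the NL arrays. In each lesioned group 1 array stood well above the others, and the NL arrays were close together. The second Nr4a2 probe gave the same picture, with r = 0.99 between probes over 12 arrays. The standard error of each Nr4a2 difference was 0.93, against 0.17 to 0.59 for the other members, and the differences were 1.21 for SL minus NL, 0.37 for DL minus SL, -0.51 for ZDL minus DL and -0.14 for ZDL minus SL (limma, adjusted p = 0.721, 0.930, 0.889 and 0.986). The 3 SL and the 3 DL arrays lay above all NL arrays, by means of 1.21 and 1.58.

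The 3 arrays with high Nr4a2, ZDL replicate 1, DL replicate 1 and SL replicate 2, were also the 3 with the highest Neurod6, a transcription factor of cortical excitatory neurons. Neurod6 was -2.71, -6.91 and -5.80 on the ZDL arrays, -2.50, -6.20 and -6.23 on the DL arrays, -5.56, -4.04 and -6.27 on the SL arrays and -6.39, -6.35 and -6.94 on the NL arrays. Among 11100 other features with a symbol, Neurod6 was the most like Nr4a2 across the 12 arrays (r = 0.97), followed by Prss12 (r = 0.94) and Neurod2 (r = 0.92), another cortical factor. These names were chosen after their values were seen. Over the 9 arrays without those 3, Nr4a2 and Neurod6 correlated at r = 0.77. Several other members were negatively related to Neurod6. Egr4 correlated with it at r = -0.70 over 12 arrays and at -0.18 over the 9, and Arc at -0.66 and 0.08. Egr2 correlated at -0.61 and -0.55, and Npas4 at -0.58 and -0.34, so the relation of Egr2 was of similar size without those arrays. For the remaining 5 members r lay between -0.35 and 0.15 over 12 arrays. The part of cortical tissue in the Nr4a2, Egr2, Egr4, Npas4 and Arc values was not tested. Without the 3 arrays, left out after the data were seen, the 3 ZDL minus DL differences with an unadjusted p under 0.05 were -0.83 for Arc, -0.94 for Nr4a1 and -0.87 for Ier2.

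**Figure D2:**
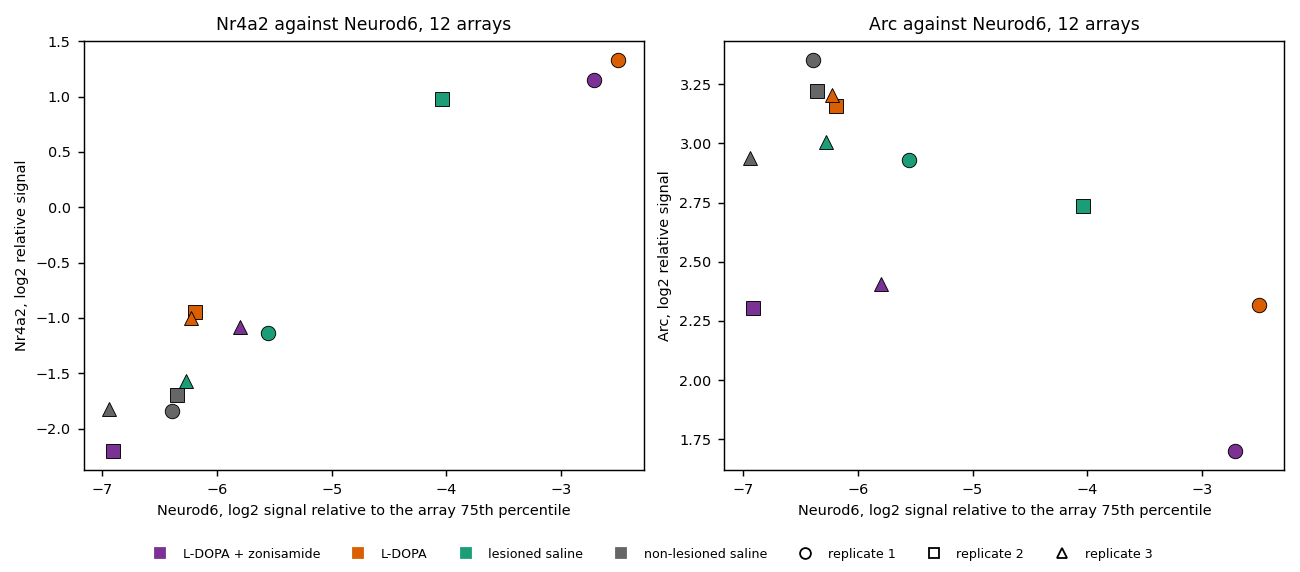
Level of Nr4a2 (left, y axis) and of Arc (right, y axis) against Neurod6 (x axis) on the 12 arrays, all as log2 signal relative to the array's 75th percentile, with colours for the groups and symbols for replicate numbers. Nr4a2 is higher where Neurod6 is higher (r = 0.97), and 3 arrays stand at the right with the highest values of both.

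Npas4, a neuron-specific factor induced by calcium entry that pairs with Arnt proteins, was -5.02, -4.10 and -5.17 on the ZDL arrays, -5.69, -5.17 and -4.67 on the DL arrays, -4.58, -4.51 and -4.25 on the SL arrays and -3.45, -4.13 and -4.74 on the NL arrays. The DL arrays were below all SL arrays, and ZDL overlapped both. The DL minus SL difference was -0.73 ± 0.39 (SE; limma, adjusted p = 0.520) and DL minus NL was -1.07 ± 0.39 (limma, adjusted p = 0.246). Means were -4.76 ± 0.58 in ZDL, -5.18 ± 0.51 in DL, -4.45 ± 0.17 in SL and -4.11 ± 0.65 in NL (SD, n = 3 each).

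Arc, whose RNA travels to active dendrites, was bright on every array. It was 1.70, 2.30 and 2.40 on the ZDL arrays, 2.32, 3.16 and 3.21 on the DL arrays, 2.93, 2.74 and 3.01 on the SL arrays and 3.35, 3.22 and 2.94 on the NL arrays. The ZDL arrays lay below all 6 saline arrays, and the first DL array was within the ZDL range. The ZDL minus DL difference was -0.76 ± 0.27 (SE; limma, adjusted p = 0.273) and ZDL minus SL was -0.75 ± 0.27 (limma, adjusted p = 0.656), each 1.69-fold lower. ZDL minus NL was -1.03 ± 0.27 (limma, adjusted p = 0.9996).

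Within slides ZDL was below DL in Arc on 3 of 3, by differences in a narrow range from -0.85 to -0.62. Between DL and SL the means of Arc, 2.89 ± 0.50 and 2.89 ± 0.14 (SD, n = 3 each), were alike, with a 95% interval of the difference from -0.59 to 0.60 in limma. Without the 4 arrays with the highest Ttr the ZDL minus DL difference of Arc was -0.32.

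**Figure D3:**
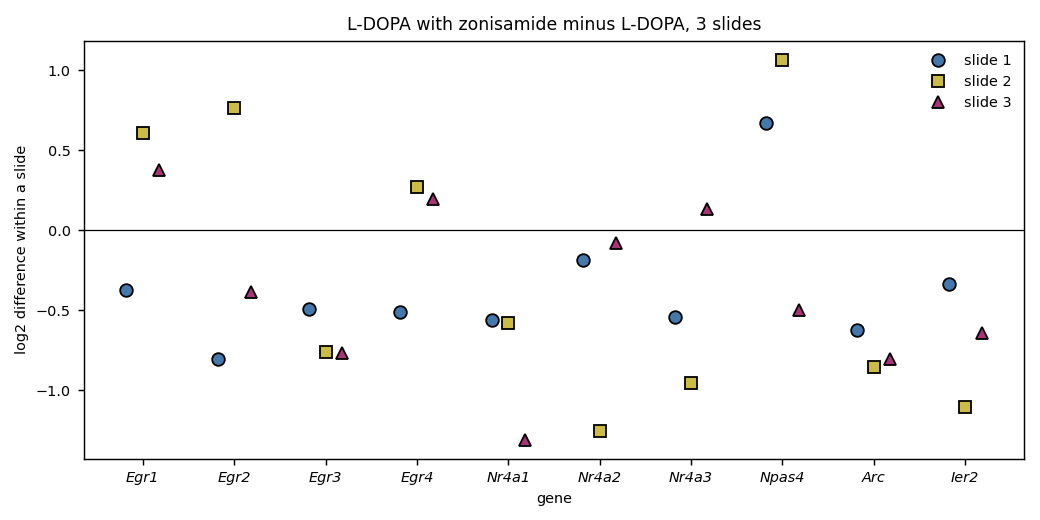
Difference in log2 signal between the ZDL and the DL array of the same slide (y axis) for each of the 10 genes (x axis), with 1 symbol for each of 3 slides. Nr4a1, Arc, Ier2, Egr3 and Nr4a2 were below 0 on all 3 slides, and the other genes had both signs.

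Ier2, a short-lived nuclear protein gene induced by growth factors and activity, had the largest positive DL minus SL difference of the members with each gene at its brightest probe, though the second Egr3 probe exceeded it. It was -0.81, -1.03 and -0.88 on the ZDL arrays, -0.47, 0.08 and -0.24 on the DL arrays, -0.61, -0.84 and -0.78 on the SL arrays and -0.80, -1.04 and -1.15 on the NL arrays. The 3 DL arrays were above all 9 others. The differences were 0.53 ± 0.17 for DL minus SL (SE; limma, adjusted p = 0.266), 1.45-fold, and 0.79 ± 0.17 for DL minus NL (limma, adjusted p = 0.0593), 1.72-fold.

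The ZDL arrays of Ier2 overlapped both saline groups. ZDL minus DL was -0.69 ± 0.17 (SE; limma, adjusted p = 0.119), 1.62-fold lower, and ZDL minus SL had a 95% interval from -0.54 to 0.22. Within slides ZDL was below DL on 3 of 3, by differences from -1.11 to -0.33, and DL was above SL on 2 of 2, by 0.14 and 0.92. Leaving out DL replicate 1 moved DL minus NL to 0.92 (limma, adjusted p = 0.0386), the only value of any member under the threshold in any alternative run.

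**Figure D4:**
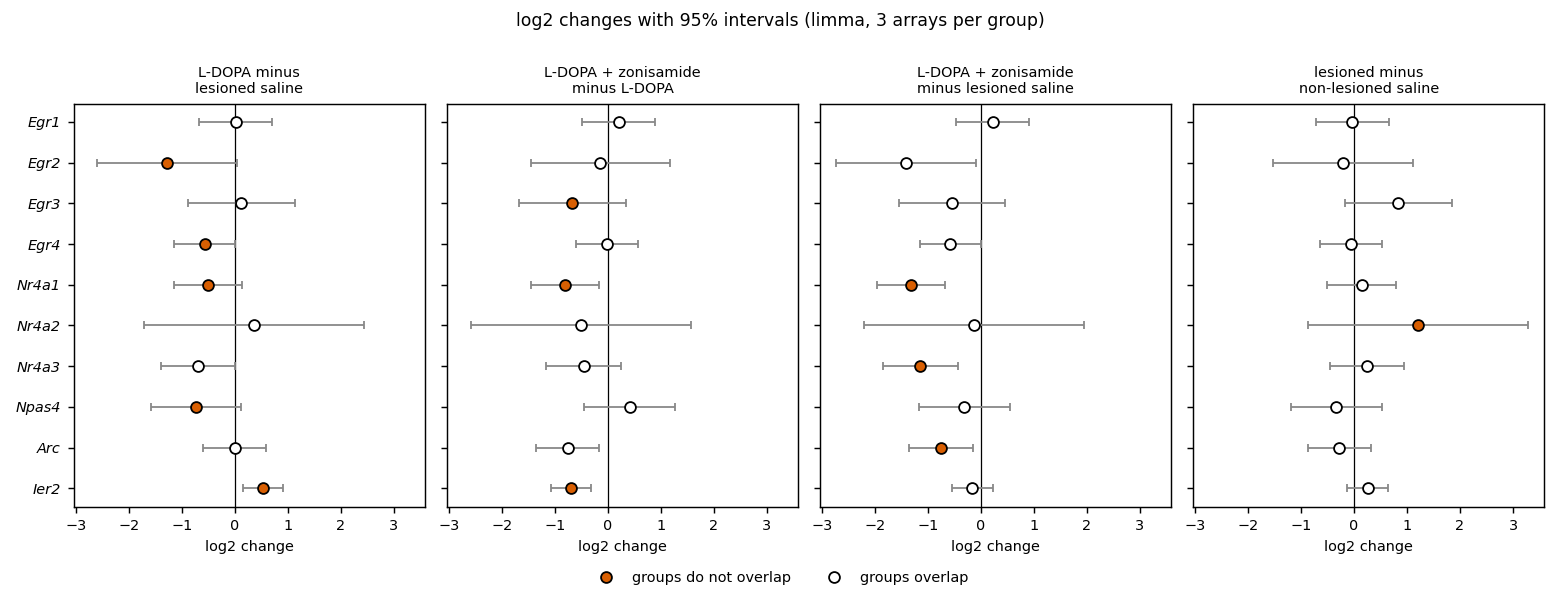
Log2 difference of each of the 10 genes (points, x axis) with its 95% interval (bars, limma, n = 3 per group) in 4 comparisons; filled points are genes whose groups did not overlap. For DL minus SL the interval of Ier2 lies above 0, and for ZDL minus DL those of Nr4a1, Arc and Ier2 lie below 0 before any adjustment for the number of features.

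The members did not vary as a single block. Egr2, Egr4, Nr4a1, Nr4a3 and Arc varied together across the 12 arrays, with Pearson r from 0.60 to 0.88 in their 10 pairs and from 0.05 to 0.74 once group means were removed. This set was picked from these same arrays, so its lowest r follows from the choice. Npas4, left out of it, correlated with Egr4 at 0.72, Egr2 at 0.69, Nr4a1 at 0.55, Arc at 0.49 and Nr4a3 at 0.27. Of all 45 pairs, 14 had r over 0.5 and 19 were negative. Egr1 was not positively related to Nr4a1 (r = -0.41) or Arc (r = -0.34), Nr4a2 was negatively related to Egr4 (r = -0.71), and Ier2 was related to Egr3 (r = 0.53) but not to Nr4a3 (r = 0.00). The arrays share slides and tissue composition, so these are descriptions.

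**Figure D5:**
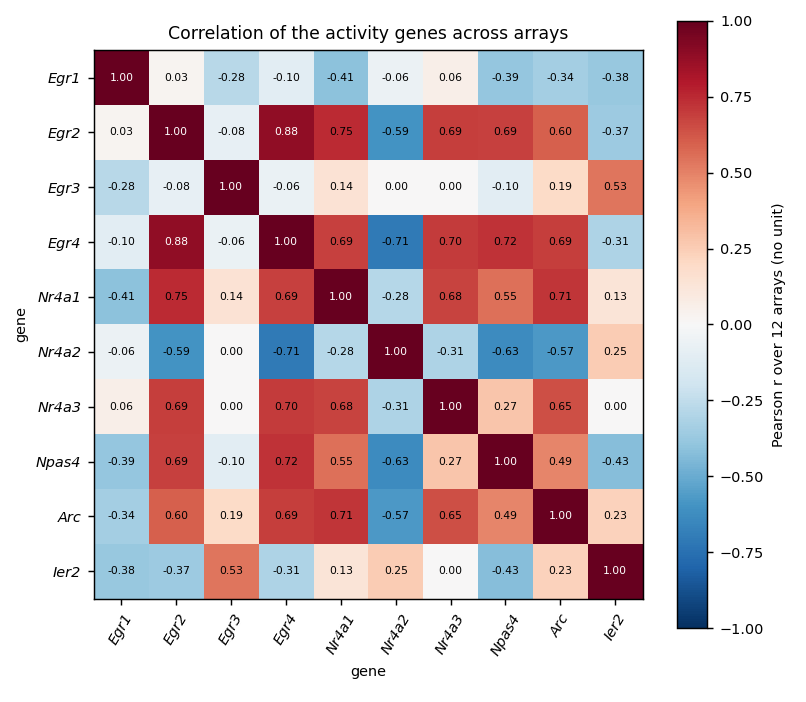
Pearson correlation over the 12 arrays (colour and number, no unit) for each pair of the 10 genes on both axes. The block of Egr2, Egr4, Nr4a1, Nr4a3 and Arc holds values from 0.60 to 0.88, and Egr1, Egr3, Nr4a2 and Ier2 stand outside it. Npas4, not counted in the block, holds values from 0.27 to 0.72 with its genes.

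Among 11100 features with a symbol, those most like Egr1 over the 12 arrays were Minpp1 (r = 0.94), Rbl2 (0.90) and Kifbp (0.90). Those most like Nr4a1 were Rab29 (0.94), Tnni2 (0.93) and Vpreb1b (0.92), and those most like Arc were Mras (0.89), Aqp9 (0.88) and Prkd2 (0.88). These are the highest of 11100 values over only 12 arrays and were not tested, so they do not show shared regulation. With group means removed their r ran from 0.66 (Aqp9 with Arc) to 0.95 (Minpp1 with Egr1). Ier2, examined after its values were seen, had more features that tracked it than any other member. For Ier2, 141 features had r over 0.85, led by Tpm4 (0.97), Bag3 (0.97), a co-chaperone induced by stress, and Bcl3 (0.96), against 3 to 17 for each of the others.

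Of 28 other immediate-early genes, 24 were tested. For DL minus SL, 0 rose and 2 fell. Klf2 fell by 1.62 ± 0.19 on the log2 scale and Klf4 fell by 1.36 ± 0.16 (SE; limma, adjusted p = 0.0122 each). Both are Krüppel-like factors that are prominent in vascular endothelium. The mean of Klf2 was -5.07 ± 0.20 in DL and -3.44 ± 0.17 in SL, and that of Klf4 was -3.29 ± 0.08 in DL and -1.93 ± 0.27 in SL (SD, n = 3 each). The summed vascular level was 3.99 to 5.21 in DL and 3.31 to 4.25 in SL, and the part of vascular cells in the Klf2 and Klf4 values was not tested. Leaving out single arrays, Klf2 kept a log2 difference from -1.74 to -1.53 and missed the threshold without SL replicate 1, SL replicate 2 or DL replicate 2 (limma, adjusted p up to 0.0602). Klf4 kept one from -1.51 to -1.24 and missed it without SL replicate 1, DL replicate 2 or DL replicate 3 (adjusted p up to 0.0622). Both passed with the replicate block and missed with slide as a fixed block (limma, adjusted p = 0.193 for Klf2 and 0.190 for Klf4). The replicate 3 arrays of DL and SL lay on different slides, so the replicate block follows slides only in part here. With normexp and quantile normalization the difference was -0.75 for Klf2 and -0.95 for Klf4, and both missed the threshold (limma, adjusted p = 0.0530 each). Both also missed it with only the compared groups (limma, adjusted p = 0.0661 for Klf2 and 0.0810 for Klf4). They passed with quantile normalization alone, with no filter on dim probes and with slide as a random block. They also passed with a gene's probes averaged and with every probe as a feature. The median over the 24 genes for DL minus SL was 0.26, with 17 higher and 7 lower. Over all features it was -0.03, with 46.7% higher.

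For ZDL minus DL, 0 of the 24 rose and 1 fell. Gadd45b, a stress and activity gene of DNA demethylation, fell by 1.39 ± 0.21 (SE; limma, adjusted p = 0.0322), with means of -0.13 ± 0.31 in ZDL and 1.26 ± 0.36 in DL (SD, n = 3 each). With the replicate number, which here marks a shared slide, as a block, the difference of Gadd45b was the same and its adjusted p was 0.0770 in limma. Under that block 13 features passed, against 93 without it, and 0 members passed under either. Gadd45b missed the threshold in 8 of 12 fits that left out 1 array (NL 1, NL 2, SL 1, SL 2, DL 2, DL 3, ZDL 2 or ZDL 3; adjusted p up to 0.134), with a difference from -1.59 to -1.26, and it was -0.88 without the 4 arrays with the highest Ttr. The median of the 24 genes for ZDL minus DL was -0.51, with 6 higher and 18 lower. Over all features it was -0.03, with 46.2% higher. For DL minus NL, 4 rose and 2 fell. Those that rose were Plk3 by 2.00 ± 0.31, Klf10 by 1.74 ± 0.34, Ier3 by 1.496 ± 0.249 and Gadd45b by 1.24 ± 0.21 (SE; limma, adjusted p from 0.0263 to 0.0453), and those that fell were Klf2 and Klf4. Each of these 6 missed the threshold in 6 to 11 of 12 fits that left out 1 array, all of them without NL replicate 2 and without DL replicate 2 (adjusted p up to 0.153), and kept its direction. With the replicate block none of the 6 passed in limma (adjusted p from 0.0529 to 0.0784), nor with slide as a fixed block (0.143 to 0.238). Of the DL and NL arrays only those of replicate 1 shared a slide by number, so the replicate block does not stand for slides in DL minus NL. None of the 24 passed for SL minus NL, ZDL minus SL or ZDL minus NL in limma, as no feature did. At an unadjusted p under 0.05, the list had 4 of 24 for SL minus NL, where 8.48% of all features did, 11 for DL minus SL (11.3% of features) and 9 for ZDL minus DL (12.4%). It had 10 for ZDL minus SL (7.34%), 14 for DL minus NL (14.1%) and 10 for ZDL minus NL (4.23%). The list was chosen with earlier results of these data known. These counts and directions therefore cannot test whether the list stands out from all features.

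Partners, targets and upstream signals of the members passed the limma test in no comparison. At an unadjusted p under 0.05 in limma there were 10 of 162 tests (27 genes in 6 comparisons). Over all features that share ran from 4.23% for ZDL minus NL to 14.1% for DL minus NL, so the count does not stand out. Of the Egr corepressors and targets, 4 of 6 were tested, and the 2 with the smallest p were the synapsins Syn2 (DL minus NL, 0.65 ± 0.23, adjusted p = 0.244) and Syn1 (ZDL minus NL, 0.37 ± 0.26, adjusted p = 0.9996). Of the 3 RXR partners of the Nr4a receptors, all tested, they were Rxrg (ZDL minus SL, -0.41 ± 0.19, adjusted p = 0.670) and Rxrb (DL minus NL, -0.17 ± 0.15, adjusted p = 0.657). Of the proteins that Arc binds, 7 of 8 were tested, among them Wasf1, a regulator of actin (ZDL minus DL, 0.57 ± 0.21, adjusted p = 0.287). Of the Npas4 partners and targets, 3 of 4 were tested, led by the target Nptx2 (DL minus NL, 1.44 ± 0.34, adjusted p = 0.0826) and the partner Arnt2 (DL minus NL, 0.31 ± 0.23, adjusted p = 0.596). Of the upstream signals, 10 of 12 were tested, led by Mapk3, which encodes ERK1 (SL minus NL, 0.89 ± 0.26, adjusted p = 0.494), and Srf (DL minus SL, -0.37 ± 0.17, adjusted p = 0.450).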

How the data were processed

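RNA of 12 striatum samples was hybridised to Agilent single-colour arrays. The deposited intensity values (processed signal) were, per the file headers, made with Feature Extraction 10.7.3.1, background-subtracted and not scaled between arrays; the submitters' processing notes give version 10.7. The authors' median spot and background intensity values served 1 alternative. Outlier spots were left out, spots of a probe were averaged, and each array's 75th percentile of log2 signal was subtracted. Symbols came from RefSeq accessions (17328 of 30367 probes). Probes well above background, on at least 0.5 of their spots, on all 3 arrays of a group were tested (21469), with the brightest probe standing for a gene, giving 19412 features. A single limma 3.58.1 model in R 4.3.3 was fitted to all 12 arrays (8 residual degrees of freedom), with two-sided tests and Benjamini-Hochberg adjustment over all features. An exact permutation test of 3 against 3 arrays reaches p = 0.1 at the least and was not run. The code was tested on simulated data.

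The members and lists were chosen with earlier results of these data known. The text names all members, list genes that passed or, where none of a list passed in any comparison, the 2 with the smallest p, and the 3 features most like Egr1, Nr4a1 and Arc. A gene that this rule names is not reported here. The labels give 3 animals per group. Same-numbered ZDL and DL arrays shared slides and their deviations from group means had correlations of 0.37, 0.19 and 0.25, so in that comparison replicate numbers pair arrays. Alternatives were quantile normalization, normexp (offset 50) with quantile normalization, no filter on dim probes, the mean of a gene's probes, every probe as a feature, only the compared groups, replicate and slide blocks, and each array left out. Leaving out the 3 arrays with the highest Neurod6 (ZDL 1, DL 1 and SL 2), or the 4 with the highest Ttr (ZDL 3, DL 2, DL 3 and NL 3), was added after the data were seen.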

Additional observations from a re-analysis of the deposited data

How the results depend on the processing

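Over 23 alternatives the number of members that passed the limma test was 0 in each of the 6 comparisons, the replicate block included, except that leaving out single arrays gave 0 to 1 for DL minus NL. Of 667 alternative values of the 29 member differences given singly, 9 turned sign, all of Nr4a2. Leaving out 1 array put Nr4a2 between -0.40 and 1.15 for DL minus SL, between -1.43 and 0.26 for ZDL minus DL and between -1.07 and 0.64 for ZDL minus SL, and for ZDL minus SL it was 0.19 with normexp and 0.049 without the 4 arrays with the highest Ttr. Of 31 other member differences, 15 turned sign under some alternative. The number of features called was 84 for DL minus SL, 93 for ZDL minus DL and 225 for DL minus NL; it was 30, 8 and 40 with normexp, 48, 45 and 83 with no filter, 34, 13 and 32 with the replicate block, and 0, 0 and 6 with slide as a fixed block. Quantile normalization gave 120 for DL minus NL, and slide as a random block 188 for ZDL minus DL. It was 0 in each with only the compared groups. Leaving out single arrays gave 2 to 219, 0 to 270 and 9 to 365, and 0 to 13 for SL minus NL, 0 to 3 for ZDL minus SL and 0 to 10 for ZDL minus NL. Without the 3 arrays with the highest Neurod6 it was 7, 25 and 124, and without the 4 with the highest Ttr 21, 15 and 10, with 17 for SL minus NL. Slide as a fixed block gave 5 for ZDL minus NL. The calls among other immediate-early genes ran from 0 to 3 for DL minus SL, 0 to 4 for ZDL minus DL and 0 to 6 for DL minus NL, so Klf2, Klf4 and Gadd45b each lost the call somewhere. The cause of these differences was not tested. The number of arrays and dim probes (Egr2, Egr3, Nr4a3, Npas4 and, outside the members, Klf2) limit the precision.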
